A study of Homo sapiens with 12 samples.

Results

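Ixazomib-resistant L428 cells were compared with L428 cells exposed to 25 nM ixazomib for 24 h. The comparison used the 6 samples whose titles name these groups, 3 resistant and 3 at 25 nM, of the 12 samples in the series. L428 is an established Hodgkin lymphoma cell line, ixazomib is a proteasome inhibitor, and Illumina HT-12 bead arrays measured the RNA. The remaining samples, 3 controls and 3 at 71.25 nM for 24 h, entered the same model. Their levels are given for reference in figures and, for some genes, in the text. Resistant cells were not tested against the 71.25 nM samples. For the resistant cells no dose is stated, and the labels do not say how they were derived or whether they are a single clone, or whether drug was present at harvest, so lasting resistance, ongoing exposure and clonal differences cannot be told apart. All groups share the parental line and the same growth medium, and no group carries an engineered allele per the labels. The series text mentions biological triplicates only after the 25 nM treatment, so the p-values rest on a spread between samples that may be technical.

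The proteasome degrades proteins tagged with ubiquitin, and when its beta subunits are blocked, unfolded and short-lived proteins accumulate. Cells answer through the heat shock factor HSF1, which drives chaperone genes, and through NFE2L1, which drives proteasome subunit genes. They also answer through ATF4 and CHOP, stress-induced factors that can promote death. Interferon-exposed cells replace catalytic proteasome subunits with immunoproteasome subunits, and Hodgkin cells are known for active NF-kB and JAK-STAT signalling and for abundant cytokine production. RNA of many genes of DNA synthesis and mitosis rises and falls with the phases of the cell cycle.

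Resistant cells held less RNA of mitosis and DNA synthesis genes than cells at 25 nM, and more RNA of interferon response, MHC class I, chemokine and stress chaperone genes. Of 60 measured genes of G2 and mitosis, 57 were lower and 0 were higher, where 14.2% of all tested genes were lower. Of 46 interferon response genes, 36 were higher and 1 was lower, where 15.4% of all tested genes were higher. PLK1, a mitotic kinase, was 4.31-fold lower, and GBP1, an interferon-induced GTPase, was 5.9-fold higher. Of 48 genes of the standard proteasome and its assembly, among them the subunit that ixazomib binds, 39 did not pass the test.

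Promoters of members of 3 of these groups are printed here because many promoters of each group share short sequence elements. For each group only members called in the direction that most of its called members share were ranked. Printed are the 2 with the largest difference whose 250 bases before the start hold the searched elements. Members with larger differences and no match there were passed over, as were GBP4 and CDCA3, whose full set of matches needs the bases after the start. HSPA1A, which holds a heat shock element in the wider searched window given below, was not ranked because it fell (-1.36). The G2 and mitosis list was searched for the CHR element (TTTGAA) and the CCAAT box (CCAAT), the interferon list for the interferon-stimulated response element (TTTC, any 2 bases, TTTC) and the chaperone list for the heat shock element (GAANNTTC). Both strands were searched in the window from 250 bases before to 50 after each RefSeq gene start, and the CHR element, CCAAT box and interferon element were chosen after the list results had been seen. The sequences are the 250 bases before the start in RefSeq's GRCh38.p14 table, 5′ to 3′ on the gene's strand, with the matches in capitals.
PLK1, chr16:23678639-23678888, + strand: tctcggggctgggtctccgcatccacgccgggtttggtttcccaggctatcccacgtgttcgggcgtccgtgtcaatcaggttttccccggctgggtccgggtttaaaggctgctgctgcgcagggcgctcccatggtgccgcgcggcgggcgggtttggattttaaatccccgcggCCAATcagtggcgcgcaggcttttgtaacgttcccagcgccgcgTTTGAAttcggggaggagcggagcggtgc
SPC25, chr2:168890431-168890680, - strand: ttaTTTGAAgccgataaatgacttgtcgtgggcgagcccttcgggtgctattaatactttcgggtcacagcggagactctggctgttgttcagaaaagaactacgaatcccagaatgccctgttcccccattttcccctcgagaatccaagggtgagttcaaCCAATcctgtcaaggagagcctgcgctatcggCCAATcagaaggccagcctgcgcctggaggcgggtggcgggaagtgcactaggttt
GBP1, chr1:89065209-89065458, - strand: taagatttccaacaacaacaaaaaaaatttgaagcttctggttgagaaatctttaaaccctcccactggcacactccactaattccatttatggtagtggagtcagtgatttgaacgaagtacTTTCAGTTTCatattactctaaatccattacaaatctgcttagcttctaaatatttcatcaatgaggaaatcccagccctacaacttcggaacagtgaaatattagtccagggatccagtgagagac
PARP14, chr3:122680589-122680838, + strand: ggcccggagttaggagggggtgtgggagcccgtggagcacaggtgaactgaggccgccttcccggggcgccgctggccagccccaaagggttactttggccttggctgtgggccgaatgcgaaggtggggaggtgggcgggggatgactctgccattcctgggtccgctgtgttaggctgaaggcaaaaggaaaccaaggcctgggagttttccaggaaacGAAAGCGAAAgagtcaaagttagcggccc
HSPA6, chr1:161524290-161524539, + strand: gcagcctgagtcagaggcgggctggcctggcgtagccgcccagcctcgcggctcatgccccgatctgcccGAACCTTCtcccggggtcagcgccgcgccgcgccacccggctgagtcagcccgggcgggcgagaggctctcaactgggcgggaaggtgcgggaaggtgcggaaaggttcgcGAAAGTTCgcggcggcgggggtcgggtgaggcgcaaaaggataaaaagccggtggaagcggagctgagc
HSPB1, chr7:76302423-76302672, + strand: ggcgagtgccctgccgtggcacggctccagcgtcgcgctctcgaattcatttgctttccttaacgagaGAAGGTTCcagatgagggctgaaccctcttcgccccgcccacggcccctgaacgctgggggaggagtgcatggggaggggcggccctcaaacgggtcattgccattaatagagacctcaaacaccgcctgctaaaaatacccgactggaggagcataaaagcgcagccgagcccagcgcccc
In PLK1 the CHR element begins 29 bases and the CCAAT box 73 bases before the start. SPC25, a kinetochore gene, holds CCAAT boxes at 88 and 56 bases and a CHR match far from them, at 247 bases. The capitals in PARP14 are the interferon element read on the opposite strand, 29 bases before the start, and GBP1 holds it at 127 bases. HSPA6 holds heat shock elements at 180 and 69 bases, and HSPB1 holds 1 at 182 bases.

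Of 50 G2 and mitosis genes with a promoter in the table, 26 (52%) held both a CHR element and a CCAAT box, against 6.08% of all 27305 promoters and 4.33% of the 9132 tested genes with a promoter. Of 45 DNA replication genes only 1 (2.22%) held both. The interferon element was found in 20 of 33 interferon genes (60.6%), against 3.65% of all promoters. The heat shock element was found in 11 of 40 chaperone genes (27.5%), against 6.87% of all promoters. The ATF4 composite element (TGATGNAA) was found in 2 of 13 genes of the ATF4 list (15.4%) and in 3.67% of all promoters. The antioxidant response element (TGACNNNGC) was found in 4 of 29 NRF2 genes (13.8%), in 11 of 41 proteasome genes (26.8%) and in 13.6% of all promoters. A match is a description of these letters, not evidence of a bound factor.

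The 6 arrays were of similar quality. Mean signal per array lay between 316.4 and 384 in the 25 nM group and between 293.2 and 326.7 in the resistant group. Between 17470 and 17837 of 47227 probes were detected at 25 nM, and between 18016 and 18785 in resistant cells. Correlations were 0.9926 to 0.9939 within the 25 nM group, 0.992 to 0.9926 within the resistant group, and 0.9743 to 0.9765 between them. Markers of Hodgkin cells were present: all 23 listed markers were detected on at least 1 of the 6 arrays, with TNFRSF8, the CD30 receptor, at 9.67 to 9.77 (log2) at 25 nM and 9.82 to 10.01 in resistant cells. PAX5 and the T cell genes CD3D, CD3E, CD3G, CD4, CD8A and CD8B were not detected on any of the 6 arrays.

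Levels below are normalized log2 signals, and a difference is the resistant mean minus the 25 nM mean with its SE, n = 3 arrays per group. A gene was called higher or lower at an adjusted p under 0.05. Of 14953 genes tested, 4431 (29.6%) were called, 2306 (15.4%) higher and 2125 (14.2%) lower in resistant cells, and 564 (3.77%) were called and differed by at least 2-fold. The arrays of the 2 groups did not overlap for 6716 genes (44.9%). These percentages are the background for each count of list members below. The SE of a difference had a median of 0.13. Arrays were made equal in distribution by quantile normalization, so each difference is measured against the bulk of genes: the median of all genes was -0.017, and it became -0.16 when arrays were scaled by their medians and 0.12 when scaled by housekeeping genes. Of the calls, 52% were higher with quantile normalization, 23.7% with median scaling and 66.2% with housekeeping scaling.

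**Figure D1:**
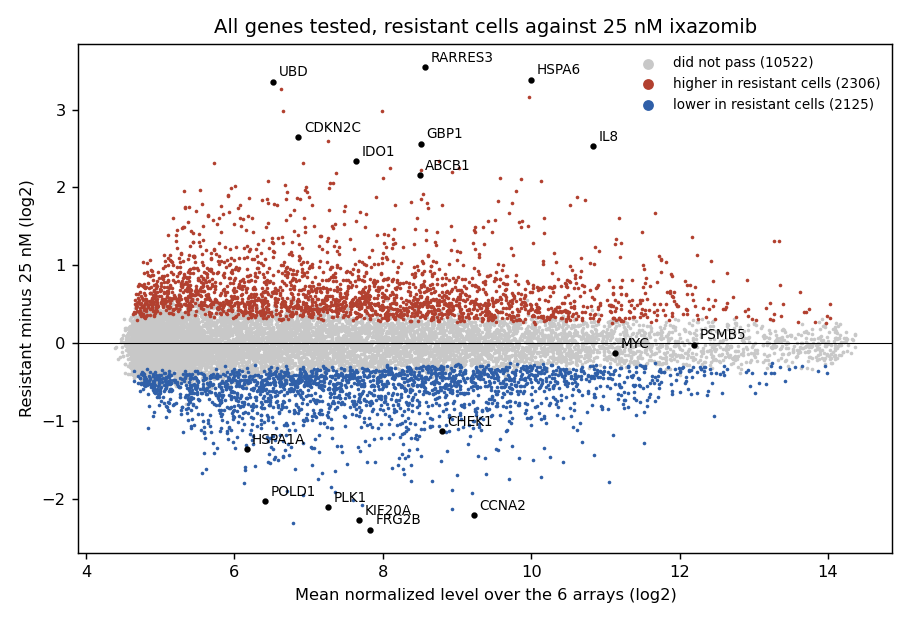
Mean normalized level over the 6 arrays (x axis, log2) against the resistant minus 25 nM difference (y axis, log2) for each of 14953 genes. Red points are the 2306 genes called higher in resistant cells, blue points the 2125 called lower, grey points did not pass, and black points are named: RARRES3, HSPA6 and UBD lie above 3 and KIF20A, FRG2B and CCNA2 below -2.

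The 3 largest rises were those of RARRES3, HSPA6 and UBD. RARRES3, listed now as PLAAT4, a phospholipid-modifying enzyme, was at 6.63, 7.08 and 6.69 on the 25 nM arrays and at 10.34, 10.41 and 10.29 on the resistant arrays, an 11.7-fold rise (3.55 ± 0.15 SE, adjusted p = 7.49e-09). UBD encodes FAT10, a ubiquitin-like modifier that delivers proteins to the proteasome. It was near the detection limit at 25 nM, at 4.70, 5.15 and 4.68 and detected on 1 of 3 arrays, and at 8.23, 8.08 and 8.30 in resistant cells (3.36 ± 0.15 SE, adjusted p = 1.36e-08). Every resistant array lay far above every 25 nM array for both genes. IFNG, the gene of interferon gamma, was not detected on any 25 nM array (4.62, 4.56 and 4.52). It was detected on all 3 resistant arrays (7.07, 6.72 and 6.83), at least 3.95-fold higher with the main processing (adjusted p = 7.94e-08). Over all processing alternatives the lowest IFNG difference was 0.95 on the log2 scale. IDO1, which degrades tryptophan, was at 6.68, 6.34 and 6.40 at 25 nM versus 8.79, 8.71 and 8.92 in resistant cells (2.33 ± 0.14 SE). A probe under its older symbol INDO differed by 2.31 ± 0.11 SE. The other leading rises were TMEM140 (2.98 ± 0.18 SE), CDKN2C, DDIT4, SERPINH1, an endoplasmic reticulum chaperone of collagen (2.25 ± 0.13 SE), HSPA6 and its near-identical copy HSPA7 (2.98 ± 0.14 SE), GBP1 and IL8. RN5S9, annotated as a 5S ribosomal RNA, and RPPH1, the RNA of ribonuclease P, also rose, by 3.16 ± 0.14 SE and 2.60 ± 0.23 SE.

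Among the 15 largest falls, 8 genes act in the cell cycle: KIF20A, CCNA2, PLK1, CDCA3, TROAP, SPC25, AURKB and E2F2. POLD1 and RRM2 act in DNA synthesis. The remaining 5 are FRG2B and FRG2, which are near-identical (-2.40 ± 0.14 SE and -2.31 ± 0.15 SE), CYP4Z1 and its pseudogene CYP4Z2P (-2.13 ± 0.12 SE and -2.09 ± 0.12 SE), and NCALD, a neuronal calcium sensor (-1.96 ± 0.10 SE). Which copy the FRG2 and CYP4Z probes read is uncertain, and another probe of CYP4Z2P differed by 0.05 and another of FRG2B by -0.42.

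**Figure D2:**
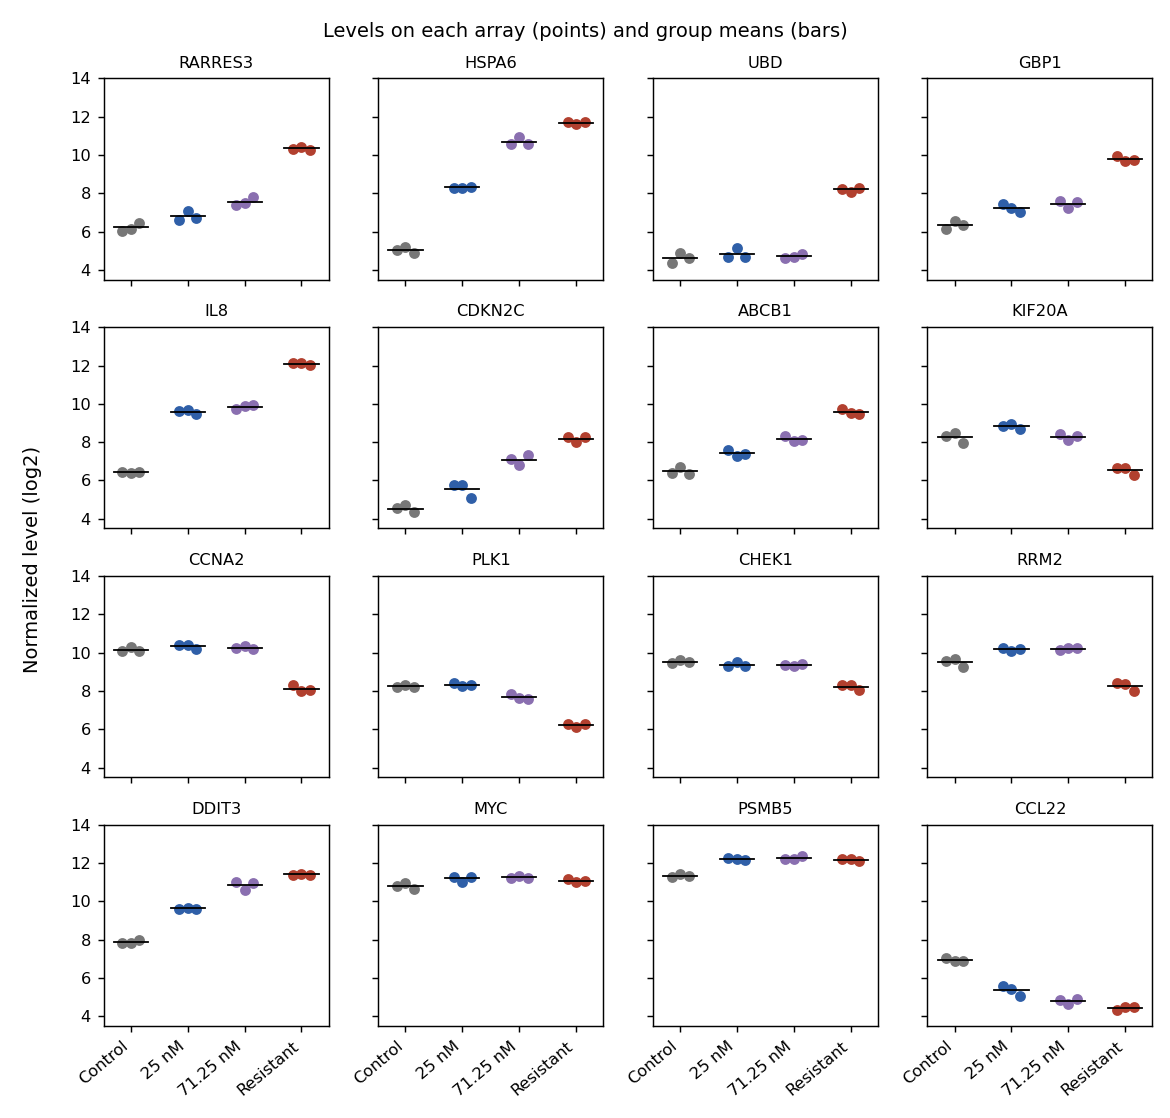
Normalized log2 level (y axis) on each of the 12 arrays (points) with group means (bars) for 16 genes, with the control and 71.25 nM groups shown as reference. UBD is low in all groups but the resistant one, HSPA6 and IL8 are above control at 25 nM and higher again in resistant cells, CCNA2, CHEK1 and PLK1 are lowest in resistant cells, and PSMB5 and MYC overlap between the 25 nM and resistant arrays.

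Mitosis genes were lower in resistant cells as a group. The 57 of 60 called lower had no member called higher, and the list median was -1.29 against -0.017 for all genes. All 16 measured mitotic kinases, B-type and F cyclins and CDC25 phosphatases fell, as did 32 of 33 spindle and kinetochore genes. In these bulk samples fewer cells in a phase and less RNA per cell cannot be told apart.

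KIF20A, a kinesin of cytokinesis, was at 8.87, 8.92 and 8.67 at 25 nM versus 6.67, 6.67 and 6.30 in resistant cells (-2.28 ± 0.15 SE, adjusted p = 2.2e-07). PLK1, which drives entry into mitosis and spindle assembly, was at 8.39, 8.25 and 8.30 at 25 nM versus 6.26, 6.09 and 6.26 in resistant cells (-2.11 ± 0.10 SE, adjusted p = 1.93e-08). CCNA2, the cyclin of S and G2 phase, was at 10.38, 10.41 and 10.19 against 8.31, 8.02 and 8.02 (-2.21 ± 0.12 SE, adjusted p = 3.88e-08). For all of these genes the groups lay well apart. AURKB, the kinase of the chromosomal passenger complex, its partner BIRC5 and CDC20, an activator of the anaphase-promoting complex, fell (-1.88, -1.72 and -1.79). AURKA, the kinase of spindle poles, fell too (-1.04). The 3 members that did not pass were KIF23 (-0.15), MKI67 (-0.37, adjusted p = 0.078) and MYBL2 (0.22). The number of members called lower ranged from 56 to 58 over all processing alternatives. Against control, PLK1 differed by 0.05 ± 0.10 SE at 25 nM (adjusted p = 0.768) and by -2.06 ± 0.10 SE in resistant cells (adjusted p = 3.44e-09), and KIF20A by 0.58 ± 0.15 SE and -1.70 ± 0.15 SE. These comparisons with control share the control arrays, and 27.0% of all genes were called at 25 nM and 47.1% in resistant cells.

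DNA replication genes followed with 40 of 52 called lower, 1 higher and a median of -0.80. Polymerases, clamp and loading factors fell in 19 of 20 cases, with PRIM2, a primase subunit, the exception at 0.52. POLD1, the catalytic subunit of polymerase delta, was at 7.36, 7.54 and 7.37 at 25 nM versus 5.39, 5.56 and 5.23 in resistant cells (-2.03 ± 0.13 SE, adjusted p = 1.25e-07). E2F2, a transcription factor of S phase genes, UHRF1, which maintains DNA methylation, and MCM4, of the replicative helicase, fell (-1.85, -1.37 and -1.36). All 6 MCM2 to MCM7 helicase genes fell, MCM6 least (-0.77), while CDC6 (-0.13) and MCM10 (-0.16) did not pass.

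Nucleotide synthesis genes were lower as well. Of 11 pyrimidine and deoxynucleotide genes 9 fell, and of 12 purine genes 7 fell. RRM2, the ribonucleotide reductase subunit made in S phase, was at 10.24, 10.08 and 10.17 against 8.41, 8.34 and 7.98 (-1.92 ± 0.13 SE, adjusted p = 2.79e-07). TK1 and TYMS, which make thymidine nucleotides, fell (-1.60 and -1.53). Polyamine genes split: ODC1 (-1.18) and SRM (-0.93), which make polyamines, fell, and SAT1 (1.41), which breaks them down, and AZIN1 (1.01), an inhibitor of antizyme, rose.

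The series title names CHK1 and MYC. CHEK1, the gene of CHK1, was at 9.28, 9.52 and 9.28 at 25 nM versus 8.32, 8.30 and 8.06 in resistant cells, a 2.19-fold fall (-1.13 ± 0.11 SE, adjusted p = 4.53e-06), with no overlap. Against control it differed by -0.18 ± 0.11 SE at 25 nM (adjusted p = 0.268). MYC was at 11.27, 11.03 and 11.30 at 25 nM versus 11.17, 10.99 and 11.06 in resistant cells, with overlapping arrays and a difference of -0.13 ± 0.11 SE (adjusted p = 0.457). A second MYC probe differed by 0.12. Of 41 checkpoint and repair genes 22 were lower and 1, ERCC1 (0.52), was higher, with a median of -0.41. RAD54L (-1.53 ± 0.11 SE), FANCD2 (-1.46 ± 0.13 SE), BRCA1 (-1.39 ± 0.15 SE) and FANCB (-1.14 ± 0.18 SE), which act in homologous recombination and crosslink repair, led. Another probe of BRCA1 differed by 0.15, another of FANCD2 by -0.44 and another of FANCB by -0.25. ATM and TOPBP1 did not pass (-0.15 and -0.06).

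Of 31 ribosome biogenesis genes, many of them MYC targets, 16 fell and 0 rose (median -0.33). NHP2, of small nucleolar ribonucleoproteins, LYAR and WDR12 fell (-0.72, -0.66 and -0.64). In the MAX network MXD1, a repressor that competes with MYC for MAX, rose by 1.24 ± 0.12 SE from a level detected on 1 of 3 arrays at 25 nM, and MXD4 rose by 0.60. MXD3 and MNT fell (-0.60 and -0.50). The number of members lower on the joint list of 40 was 18, against 27 with median scaling and 11 without resistant array 12.

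Of 5 measured genes of CDK inhibitors 3 were higher, and CDKN1B (0.20) and CDKN2A (-0.20) did not pass. CDKN2C, the inhibitor p18 of CDK4 and CDK6, was at 5.77, 5.78 and 5.07 at 25 nM versus 8.24, 8.03 and 8.28 in resistant cells (2.64 ± 0.18 SE, adjusted p = 2.86e-07), although its other probe differed by -0.51. CDKN1A, the inhibitor p21, counted with the damage response genes, was at 9.39, 9.42 and 9.29 against 10.95, 11.09 and 10.87 (1.61 ± 0.10 SE), CDKN2D rose by 0.64, and CDKN2B, not detected at 25 nM, was at least 1.72-fold higher. GADD45A and GADD45B, stress-induced growth arrest genes, rose by 1.27 and 1.11. MDM2 (-0.01), BAX (-0.23) and BBC3 (0.01), genes of the damage response and of cell death, did not pass. Of 27 genes on the list of cell cycle inhibitors and damage response genes 10 rose and 3 fell.

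**Figure D3:**
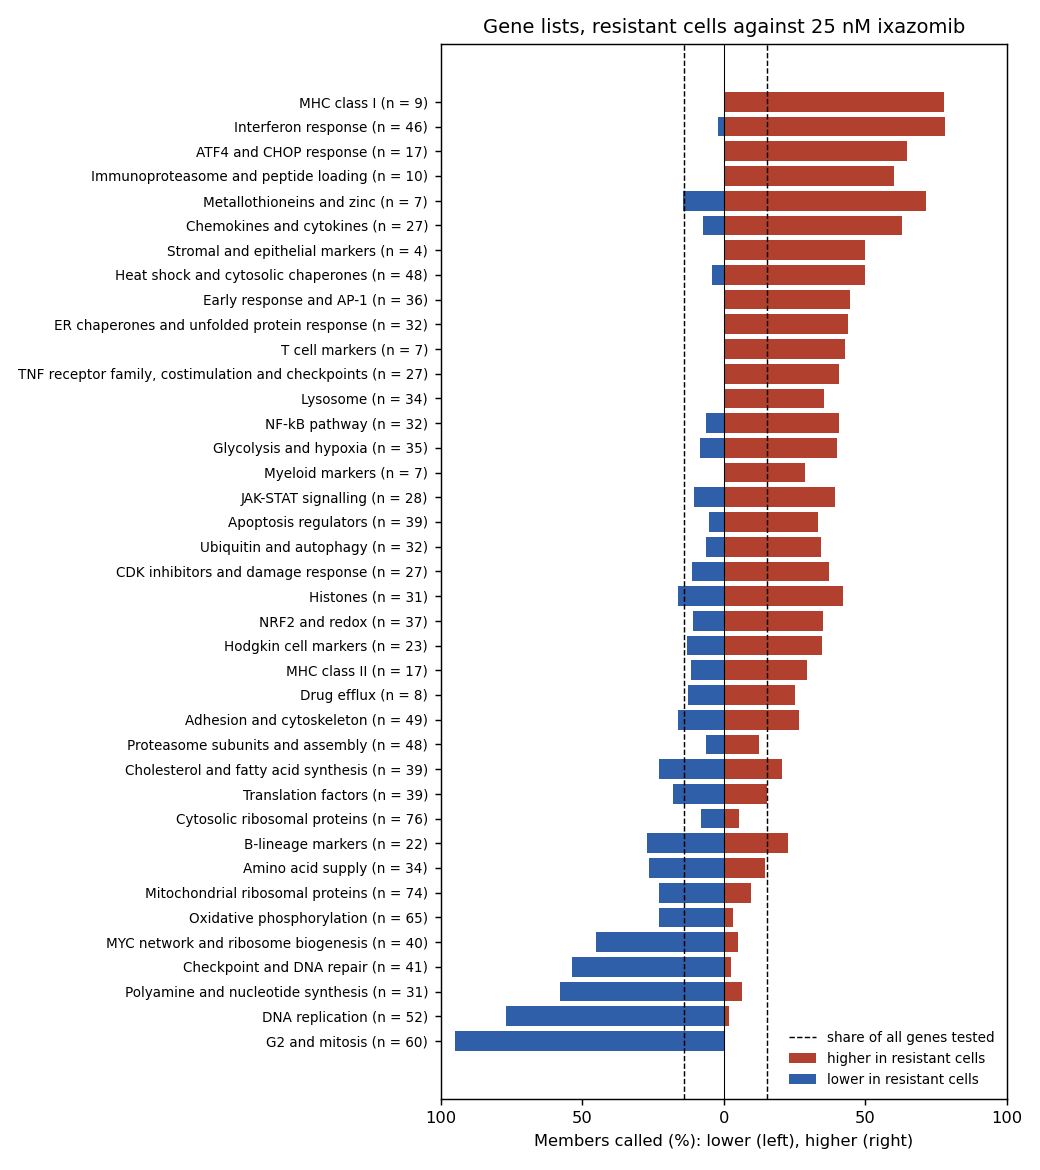
Share of measured members of 39 gene lists called higher (red, right) or lower (blue, left) in resistant cells, in percent, with n the members measured. Dashed lines mark the 15.4% and 14.2% of all tested genes called in each direction, and the G2 and mitosis list (57 of 60 lower), DNA replication list (40 of 52 lower) and interferon list (36 of 46 higher) lie far beyond them.

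Interferon response genes were higher in resistant cells. Of 35 effectors 28 rose and 0 fell, and of 11 sensors and factors 8 rose and 1 fell. The list median was 0.65. With median scaling 24 of the 46 members were called higher, 3 lower, and the median was 0.43.

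GBP1 was at 7.43, 7.22 and 7.05 at 25 nM versus 9.94, 9.69 and 9.75 in resistant cells (2.56 ± 0.14 SE, adjusted p = 6.72e-08). GBP4, of the same family of guanylate-binding proteins, was at 7.76, 7.89 and 8.06 against 10.24, 10.07 and 10.13 (2.24 ± 0.10 SE). The groups were far apart for both, and the arrays of each group lay close together. GBP2 (1.95 ± 0.09 SE), PARP9 (1.94 ± 0.11 SE), PARP14 (1.71 ± 0.14 SE) and OAS2 (1.78 ± 0.13 SE), which acts in degradation of viral RNA, followed. Among the factors, IRF1 was at 9.79, 9.76 and 9.87 against 11.59, 11.56 and 11.78 (1.83 ± 0.13 SE, adjusted p = 2.79e-07). STAT2 and IRF9, which act together at the interferon element, rose by 1.00 and 1.5, and IRF7 rose by 1.45. IFIH1, the RNA sensor MDA5, was the member that fell (-0.30, adjusted p = 0.039), and MX2, IFIT1 and IFITM3 did not pass (-0.12, 0.30 and 0.17). GBP1 differed from control by 0.88 ± 0.14 SE at 25 nM and by 3.44 ± 0.14 SE in resistant cells. UBD differed from control by 0.22 ± 0.15 SE at 25 nM (adjusted p = 0.316) and by 3.58 ± 0.15 SE in resistant cells. At 71.25 nM the means of GBP1 and UBD were 7.44 and 4.71, against 9.79 and 8.20 in resistant cells.

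RNA of MHC class I genes was higher as well. Of 9 genes of heavy chains, B2M and their regulator NLRC5, 7 rose (median 0.65), led by HLA-E (1.11 ± 0.09 SE), HLA-G and HLA-H (both 0.80) and HLA-F (0.75). Class I genes are similar in sequence, so signals of single copies are uncertain, and with median scaling 4 of the 9 were called higher. B2M, the shared light chain, was at 11.85, 11.93 and 11.94 against 12.55, 12.54 and 12.29 (0.55 ± 0.13 SE, adjusted p = 0.00638). HLA-C and NLRC5 did not pass (0.11 and 0.45).

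All 5 immunoproteasome genes were higher than at 25 nM. PSMB9 was at 7.75, 7.63 and 7.79 against 8.55, 8.40 and 8.71 (0.83 ± 0.12 SE, adjusted p = 0.000149), PSMB8 at 9.12, 8.95 and 8.92 against 9.80, 9.71 and 9.75 (0.75 ± 0.10 SE), and PSMB10 differed by 0.57 ± 0.13 SE. The activator subunits PSME1 and PSME2 differed by 0.37 and 0.47. Another probe of PSMB9 differed by -0.13, and the other PSMB8 probes by -0.47 to 0.71. Against control PSMB9 differed by -0.42 ± 0.12 SE at 25 nM (adjusted p = 0.0188) and by 0.41 ± 0.12 SE in resistant cells (adjusted p = 0.0112). PSMB8 differed by -0.54 ± 0.10 SE at 25 nM (adjusted p = 0.00176) and by 0.22 ± 0.10 SE in resistant cells (adjusted p = 0.1). The same differences of PSMB10 were -0.32 (adjusted p = 0.078) and 0.25 (adjusted p = 0.13). TAP1, which carries peptides into the endoplasmic reticulum, rose by 0.80 ± 0.09 SE, and TAP2, TAPBP, ERAP1 and ERAP2 did not pass. With median scaling 3 of the 10 genes of the immunoproteasome and peptide loading list were called, against 6.

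MHC class II genes showed no common direction. Of 17 measured, 5 rose and 2 fell, and the median of 0.23 became -0.04 with median scaling. HLA-DQB1 was at 9.81, 9.82 and 9.81 at 25 nM but 9.08, 8.76 and 9.10 in resistant cells (-0.83 ± 0.12 SE, adjusted p = 0.000177), while CTSS, the protease that trims the invariant chain, rose (0.78 ± 0.12 SE) from a level detected on only 1 of 3 arrays at 25 nM. CIITA, the master regulator, and HLA-DRA differed by 0.09 (adjusted p = 0.59) and 0.23 (adjusted p = 0.22). CD74, the invariant chain, differed by 0.52 ± 0.16 SE (adjusted p = 0.0244), a call lost with median scaling and when any of 25 nM arrays 4 and 6 or resistant arrays 10 and 11 was left out.

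Of 27 chemokine and cytokine genes detected widely enough to test, 17 rose and 2 fell, with a median of 0.85. IL8, the neutrophil chemokine CXCL8, was at 9.61, 9.66 and 9.45 against 12.12, 12.14 and 12.04 (2.53 ± 0.10 SE, adjusted p = 4.63e-09), a 5.77-fold rise on top of a level already 3.14 ± 0.10 SE above control at 25 nM. CCL3, a chemokine of monocytes and T cells, was at 8.49, 8.58 and 8.47 against 10.77, 10.56 and 10.56 (2.11 ± 0.10 SE). The near-identical CCL3L1 and CCL3L3 differed by 2.20 and 1.83, and which copy a probe reads is uncertain. CXCL10, an interferon-induced chemokine of T cells, rose by 1.94 ± 0.15 SE, and CCL20 by 1.87 ± 0.14 SE. IL9, a growth factor that Hodgkin cells can make, was at 8.93, 8.85 and 8.64 against 10.97, 10.84 and 10.94 (2.11 ± 0.12 SE), and IL13, another such factor, rose by 1.49 ± 0.11 SE. The inflammatory cytokines IL6 and TNF rose by 1.42 and 1.14.

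CCL22, a chemokine typical of Hodgkin cells that attracts T cells, went the opposite way. It was at 5.59, 5.43 and 5.08 at 25 nM and not detected on any resistant array, which makes it at least 1.45-fold lower (adjusted p = 0.000116). MIF was the other gene that fell (-0.51 ± 0.14 SE), and CCL17, LTA and CSF1 did not pass (-0.23, 0.25 and -0.39).

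Of 12 costimulation and immune checkpoint genes 6 rose and 0 fell, and of 15 genes of the TNF receptor family and its adaptors 5 rose and 0 fell. CD274, the ligand PD-L1, was at 4.45, 4.70 and 4.50 at 25 nM, not detected on any array, and at 5.70, 6.20 and 6.18 in resistant cells, at least 2.19-fold higher (adjusted p = 3.42e-06). HAVCR2, the receptor TIM-3, and TNFSF4, the ligand OX40L, were likewise detected on all 3 resistant arrays and no 25 nM array, at least 2.25-fold and 2.30-fold higher. CD40 rose by 0.88, and TNFRSF8 (0.21, adjusted p = 0.184), CD80 (-0.07) and CD86 (0.11) did not pass.

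Genes of NF-kB subunits did not rise with their targets: 0 of 5 subunits were higher and NFKB2 was lower (-0.48 ± 0.11 SE). Of 18 target genes 10 rose and 1 fell, led by IL8, PLEK (1.96 ± 0.11 SE), IRF1 and the adhesion molecule ICAM1 (1.45 ± 0.20 SE). The inhibitor gene NFKBIA differed by 0.07 (adjusted p = 0.65). The joint list had a median of 0.18 that became -0.09 with median scaling, with 7 instead of 13 members higher. In the JAK-STAT list 11 of 28 rose and 3 fell, and its median of 0.26 became -0.02 with median scaling. The cytokine receptor genes IL7R (2.02 ± 0.17 SE) and IL2RB (1.42 ± 0.15 SE) rose. IL7R was detected on 2 of 3 arrays at 25 nM, and its lowest difference over the processing alternatives was 0.90. JAK2 rose by 1.01, and the feedback inhibitors SOCS3 and SOCS2 moved in opposite directions (1.07 ± 0.13 SE and -1.09 ± 0.14 SE). Other probes of SOCS3 and SOCS2 differed by 0.41 and -0.47.

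**Figure D4:**
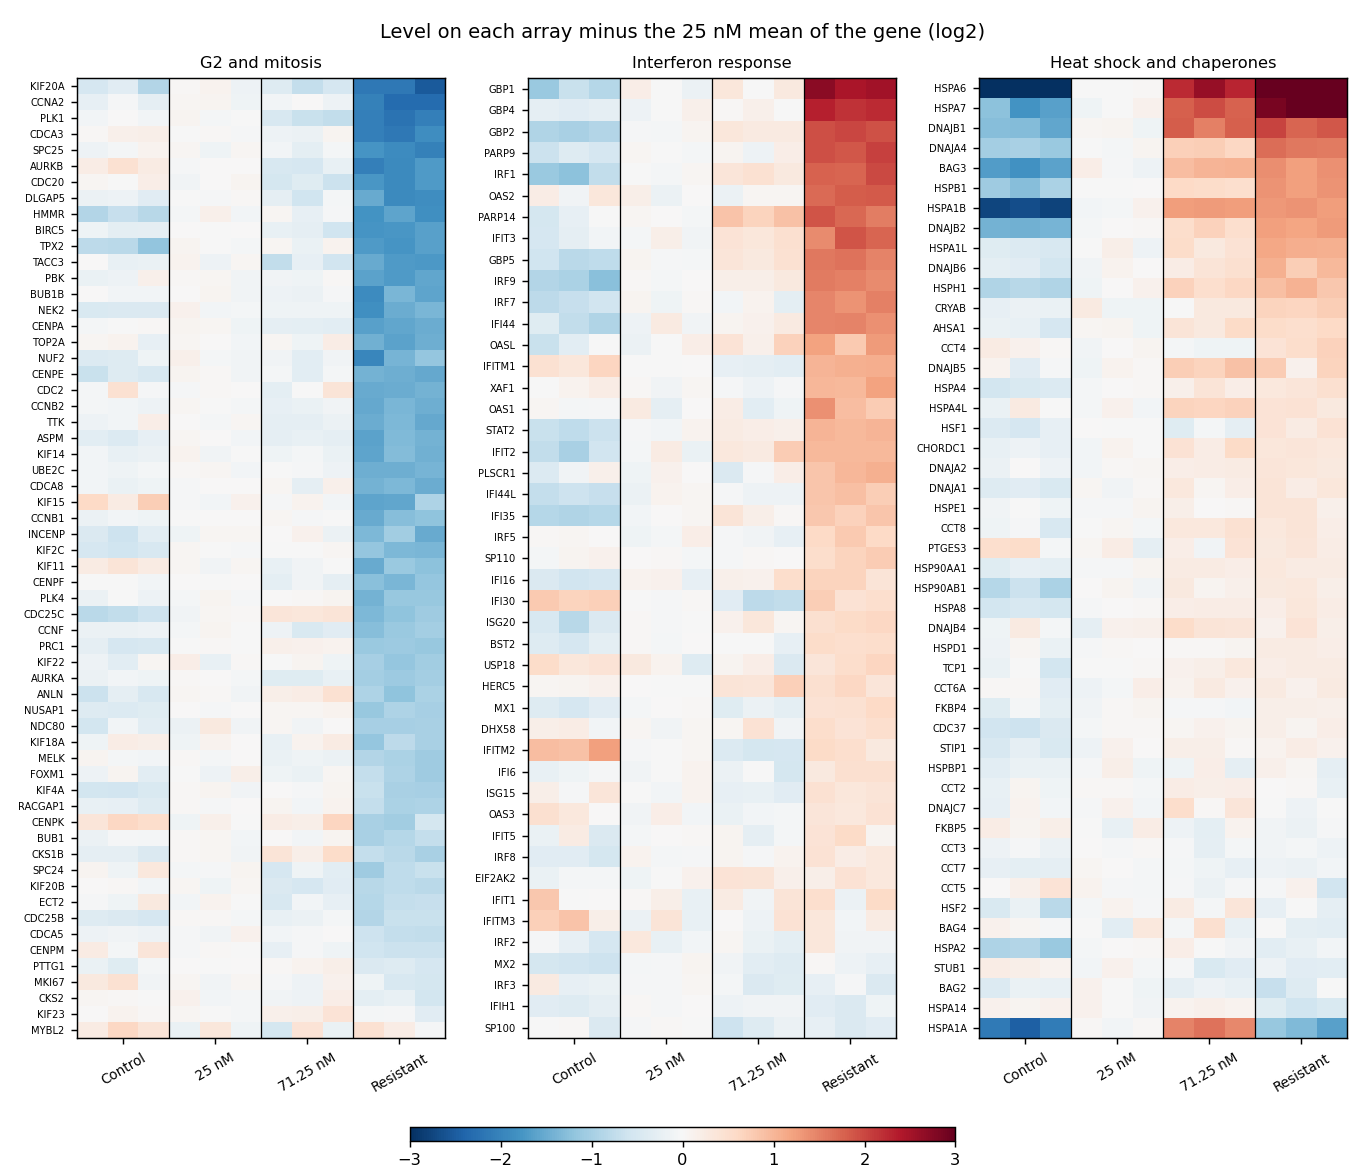
Level on each of the 12 arrays minus the gene's mean at 25 nM (log2, colour from -3 in blue to 3 in red) for 60 members of the G2 and mitosis list, 45 of the 46 of the interferon list and 48 of the heat shock list, ordered by the resistant minus 25 nM difference. The 3 resistant columns are blue for nearly all mitosis genes and red for most interferon genes, and among chaperones HSPA6, HSPA7 and DNAJB1 stand out above while HSPA1A lies below.

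Heat shock and cytosolic chaperone genes were higher in 24 of 48 cases and lower in 2, with a median of 0.27. The strongest rises were in stress-induced members: HSPA6, an HSP70 made almost only under stress, was at 8.29, 8.30 and 8.34 at 25 nM versus 11.72, 11.64 and 11.71 in resistant cells, 10.4-fold higher (3.38 ± 0.12 SE, adjusted p = 2.72e-09). Against control HSPA6 was 3.25 ± 0.12 SE higher at 25 nM and 6.64 ± 0.12 SE higher in resistant cells. DNAJB1, the HSP40 partner of HSP70, was at 9.74, 9.76 and 9.55 against 11.71, 11.44 and 11.54 (1.88 ± 0.12 SE), DNAJA4 rose by 1.61 ± 0.09 SE and the co-chaperone BAG3 by 1.34 ± 0.11 SE. HSPB1, the small heat shock protein HSP27, was at 12.61, 12.61 and 12.63 against 13.97, 13.86 and 13.96 (1.31 ± 0.10 SE, adjusted p = 6.11e-07). The resistant arrays lay above the 25 nM arrays for each of these genes. At 71.25 nM the means of HSPA6, DNAJA4 and DNAJB1 were 10.69, 11.07 and 11.39, against 11.69, 11.99 and 11.56 in resistant cells.

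The near-identical genes HSPA1A and HSPA1B went in opposite directions. HSPA1B, the brighter probe, was at 12.61, 12.61 and 12.82 against 13.99, 14.03 and 13.94 (1.31 ± 0.09 SE), and HSPA1A was at 6.88, 6.77 and 6.89 against 5.71, 5.51 and 5.23 (-1.36 ± 0.14 SE, adjusted p = 6.66e-06). Which copy each probe reads is uncertain. The constitutive members moved little: HSPA8 differed by 0.25 ± 0.09 SE and HSP90AA1 by 0.26 ± 0.09 SE, and HSP90AB1 (0.26, adjusted p = 0.097) and 8 of 10 chaperonin genes did not pass. HSF1, the factor that binds the heat shock element, rose by 0.36 ± 0.11 SE. With median scaling 12 of 48 members were called higher and the median was 0.05, and 15 were called higher without 25 nM array 4 or without resistant array 10.

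Genes of the ATF4 and CHOP branch rose in 11 of 17 cases with no fall (median 0.54). DDIT3, which encodes CHOP, was at 9.62, 9.66 and 9.61 against 11.38, 11.45 and 11.39 (1.78 ± 0.11 SE, adjusted p = 1.21e-07), an addition to the 1.75 ± 0.11 SE by which it exceeded control at 25 nM. DDIT4, an inhibitor of mTOR signalling, was at 7.43, 7.72 and 7.60 against 9.98, 9.85 and 9.94 (2.34 ± 0.13 SE, adjusted p = 5.07e-08). GDF15, a secreted stress cytokine, SESN2, a sestrin, PPP1R15A, which restores protein synthesis, and TRIB3 rose by 1.60, 1.29, 1.07 and 0.99. GDF15 was detected on 2 of 3 arrays at 25 nM. The means of DDIT3, DDIT4 and GDF15 at 71.25 nM were 10.86, 9.03 and 5.21, below 11.41, 9.92 and 6.88 in resistant cells. SESN2 was higher at 71.25 nM, at 7.59 against 7.16 in resistant cells. Of 12 amino acid and one-carbon synthesis genes 6 fell, 1 rose and 5 did not pass: GOT1 rose (0.77), ASNS (-0.19) and PSAT1 (-0.07) were among those that did not pass, and PHGDH, PSPH, PYCR1, SHMT1, ALDH18A1 and MTHFD1L fell, from -0.37 for PHGDH to -0.80 for SHMT1. WARS, the tryptophan tRNA synthetase, which interferon also induces, rose by 1.67 ± 0.10 SE, and it was the 1 of 13 measured synthetases to rise, while 3 fell. Of 9 amino acid transporters 3 rose and 0 fell, SLC1A4 at least 1.92-fold from a level not detected at 25 nM.

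In the endoplasmic reticulum 14 of 32 genes rose and 0 fell. HSPA5, the chaperone BiP, was at 6.98, 6.80 and 7.06 against 8.62, 8.48 and 8.71 (1.66 ± 0.12 SE, adjusted p = 3.29e-07), DNAJB9 rose by 1.33 ± 0.12 SE and the sensor ERN1, IRE1, by 1.01 ± 0.10 SE. At 71.25 nM the means of HSPA5, DNAJB9 and ERN1 were 7.97, 8.61 and 7.68, against 8.61, 8.80 and 8.39 in resistant cells. HERPUD1, also on this list, was at 10.69 at 71.25 nM and 10.67 in resistant cells. All 5 sensors and factors rose, while none of 5 disulfide isomerase genes passed and CALR (0.01), CANX (-0.06) and HSP90B1 (-0.22) did not either. The median of 0.26 became -0.005 with median scaling, and 3 members were then called higher.

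**Figure D5:**
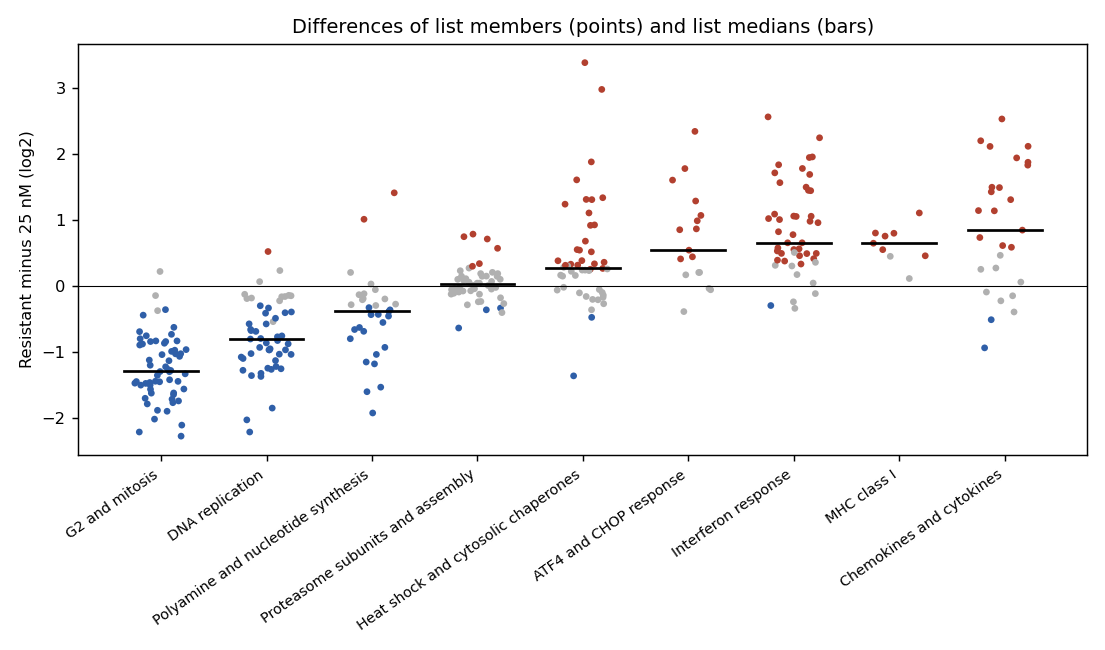
Resistant minus 25 nM difference (y axis, log2) of each measured member of 9 gene lists (points; red called higher, blue called lower, grey did not pass) with list medians (bars). Mitosis and replication medians lie at -1.29 and -0.80, the proteasome median at 0.02 and the interferon and chemokine medians at 0.65 and 0.85.

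Few proteasome genes passed the test. Of 48 subunit, assembly and activator genes 6 were higher and 3 lower (18.8% called against 29.6% of all genes), and the median of 0.02 became -0.23 with median scaling. PSMB5, the catalytic subunit that ixazomib binds, was at 12.26, 12.22 and 12.14 at 25 nM versus 12.22, 12.20 and 12.13 in resistant cells (-0.02 ± 0.10 SE, adjusted p = 0.893). Its arrays overlapped, and it stood above control by 0.87 ± 0.10 SE at 25 nM and by 0.84 ± 0.10 SE in resistant cells. None of the 7 core beta subunits passed, and 1 of 7 core alpha subunits, PSMA2, rose (0.57 ± 0.14 SE). PSMF1, an inhibitor of the proteasome, rose by 0.78 ± 0.11 SE, NFE2L1, the factor that drives subunit genes, by 0.75 ± 0.10 SE and PSMD8, a subunit of the regulatory particle, by 0.71 ± 0.18 SE, a call lost with median scaling. PSMG4, an assembly chaperone, fell by 0.64 on the log2 scale.

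Other routes of protein disposal were higher in part. Of 17 autophagy genes 8 rose and 1 fell, with WIPI1 (1.30 ± 0.13 SE), CALCOCO2 (0.96 ± 0.16 SE) and MAP1LC3B (0.92 ± 0.11 SE), all of autophagosome formation or cargo binding, in the lead, while SQSTM1, a cargo receptor, did not pass (0.18). ZFAND2A, a stress-induced partner of the proteasome, rose by 1.18 ± 0.11 SE, and the ubiquitin gene UBB differed by -0.10. Of 34 lysosome genes 12 rose and 0 fell, PSAP by 1.03 ± 0.12 SE and CTSH by 0.90 ± 0.10 SE. Median scaling reduced these counts to 5 of 32 on the joint ubiquitin and autophagy list, from 11, and to 4 for the lysosome, whose median of 0.20 became -0.02. Against control CTSH differed by -1.38 ± 0.10 SE at 25 nM and by -0.47 ± 0.10 SE in resistant cells, so it stayed below control. PSAP differed from control by 1.40 ± 0.12 SE and 2.44 ± 0.12 SE. Another CTSH probe differed by 0.41 between resistant cells and 25 nM.

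Among NRF2 and redox genes 13 of 37 rose and 4 fell, with a median of 0.12 that became -0.08 with median scaling. HMOX1, heme oxygenase, was at 7.55, 7.84 and 7.56 against 9.32, 9.17 and 9.30 (1.61 ± 0.11 SE, adjusted p = 2.07e-07). MAFF, a small MAF partner of NRF2, rose by 1.69 ± 0.15 SE, FTH1, the ferritin heavy chain, by 1.32 ± 0.12 SE and TXNRD1 by 0.90, while GCLM (0.08), GCLC (0.19) and NFE2L2, NRF2 itself (0.12), did not pass. Of 5 metallothionein genes 4 rose, MT1X by 0.88 ± 0.12 SE. Hypoxia-regulated genes rose in 11 of 13 cases, ADM by 1.86 ± 0.14 SE and NDRG1 by 1.43 ± 0.13 SE, but glycolysis enzymes split with 3 rises and 3 falls of 22, PFKL falling by 1.38 on the log2 scale.

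ABCB1, the drug efflux pump P-glycoprotein, was at 7.56, 7.29 and 7.40 at 25 nM versus 9.74, 9.55 and 9.45 in resistant cells, 4.46-fold higher (2.16 ± 0.13 SE, adjusted p = 9.34e-08). Its arrays did not overlap, its second probe differed by 1.74, and it was above control by 0.95 ± 0.13 SE at 25 nM and by 3.11 ± 0.13 SE in resistant cells. MVP, the major vault protein, rose by 0.59 ± 0.12 SE and ABCB10, a mitochondrial transporter, fell by 0.93 on the log2 scale. ABCC1 (-0.04), ABCC3 (-0.11), ABCC4 (-0.07), ABCC5 (0.21) and ABCB6 (0.01) did not pass.

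Apoptosis regulators had 13 rises and 2 falls among 39, with a median of 0.11 that became -0.10 with median scaling. CASP4, an inflammatory caspase that interferon induces, was at 4.92, 5.06 and 4.92 against 6.97, 6.78 and 6.85 (1.90 ± 0.14 SE, adjusted p = 5.28e-07). TNFRSF10B, the TRAIL receptor DR5, rose by 1.07 ± 0.11 SE with other probes between 0.15 and 0.89, BCL2L2, a survival gene, by 0.92 ± 0.12 SE and PMAIP1, the BH3-only protein NOXA, by 0.82 ± 0.10 SE. MCL1 (0.11), BCL2L1 (-0.20) and BCL2L11 (-0.25) did not pass.

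Early response genes, induced within hours of growth factor signals, included 16 rises and 0 falls among 36. DUSP5, a phosphatase that restrains ERK, was at 7.44, 7.40 and 7.37 against 9.74, 9.65 and 9.48 (2.22 ± 0.11 SE, adjusted p = 1.64e-08). IER5 (1.51 ± 0.09 SE), EGR2 (1.27 ± 0.12 SE) and EGR1 (1.25 ± 0.11 SE), which are transcribed early after stimulation, followed. JUN (0.12), JUNB (-0.07) and BATF3 (0.04), the AP-1 factors typical of Hodgkin cells, did not pass. With median scaling 9 of 36 were called higher.

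Most mitochondrial genes did not pass the test. Of 65 oxidative phosphorylation genes 15 fell and 2 rose (median -0.14), ATP5D (-0.74) and NDUFV1 (-0.66) among them, and of 74 mitochondrial ribosomal proteins 17 fell and 7 rose (median -0.17). With median scaling 25 and 38 fell. Cytosolic ribosomal proteins were called in 10 of 76 cases (13.2%), 4 higher and 6 lower, below the 29.6% of all genes.

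Lineage genes moved singly. BCL6, a germinal centre repressor, was at 4.99, 5.59 and 4.96 against 6.97, 6.86 and 6.91 (1.73 ± 0.17 SE, adjusted p = 6.83e-06), and PRDM1, a plasma cell factor, rose by 1.18 ± 0.11 SE, while IRF4 and BLK fell (-0.45 and -0.55). The other PRDM1 probes differed by 0.32 to 0.65. Of 22 B-lineage markers 5 rose and 6 fell, and of 23 Hodgkin markers 8 rose and 3 fell.

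Few markers of other cell types were detected widely enough to test. Of 23 T cell markers 7 were tested. Their summed log2 level was 38.03 to 39.04 at 25 nM and 40.53 to 41.55 in resistant cells. Of these 7, 3 rose and 4 did not pass, with a median of -0.02 and differences from -0.40 to 1.49. GZMB, granzyme B, was at least 2.24-fold higher, NKG7 at least 1.46-fold higher and GATA3 0.76 ± 0.10 SE higher. GATA3 is also on the list of Hodgkin markers. Of 19 myeloid markers 7 were tested, at 42.12 to 43.69 against 44.21 to 45.58, with CD68 (0.78) and CSF1R (1.06) higher. Of 18 stromal and epithelial markers 4 were tested, at 33.07 to 33.70 against 33.92 to 34.61, with ACTA2 (0.73) higher and PDGFRA, not detected at 25 nM, at least 1.12-fold higher. NKG7 and PDGFRA were detected on resistant arrays only and passed the detection filter through them. The gaps of the T cell and stromal sums are therefore partly built in by the filter. The part of other cell types in the results was not tested. Defining genes of these types, CD3D, CD3E and CD8A, MPO and ITGAM, and COL3A1, PECAM1 and KRT8, were not detected on any of the 6 arrays.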

How the data were processed

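RNA of 12 L428 samples, 3 per group by title, was measured on Illumina HT-12 arrays. The deposited signals are linear mean bead intensities without background subtraction or normalization, with a detection p-value per probe, per the file headers and the values; no scanner software is named in the labels or headers. The authors also deposited processed intensities, housekeeping-corrected and quantile normalized per the series' design text and used as an alternative; their column medians were 103.9 to 104.8, and which housekeeping genes were used is unknown. Signal columns carry array numbers 1 to 12 that were not tied to replicate numbers; no 2 arrays held identical signals. For 1 sample, title (71.25 nM) and description (25 nM) conflict, and the title was followed.

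Signals were corrected with limma's normexp model (limma 3.58.1, R 4.3.3; controls inferred from detection p-values, offset 16), quantile normalized and taken to log2. Probes detected (p under 0.05) on at least 3 of 12 arrays were kept (20414). All 12 arrays entered limma's linear model, which estimated each group's mean, with two-sided moderated tests and Benjamini-Hochberg adjustment over kept probes. A gene is its brightest kept probe under the deposited symbol, so older symbols of a gene count separately; in 21 genes probes were called in opposite directions. Where no array of a group detected a gene, a minimum fold is given: the mean of the brighter group over a floor, which on each dim array is the lowest detected level or the probe's own level, whichever is higher, averaged over the group. This minimum holds for the main processing only. Under some alternative the log2 difference was below it, down to 0.95 for IFNG, 0.53 for CD274 and 0.36 for SLC1A4. For PDGFRA the lowest, 0.25, stayed above it. Precision is set by the small number of arrays: an exact permutation test of 3 against 3 cannot go below p = 0.1.

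The comparison, the 39 gene lists and the tests were chosen with earlier results of these data known. Named genes were MYC, CHEK1 and PSMB5, the 15 largest rises and falls whose groups do not overlap, and up to 4 leading called members per list; further list members were named after their values were seen. Steps were tested on simulated data. Alternatives were other background, scaling, filter, probe, model and leave-one-out settings and the authors' values with and without a replicate block. Some genes are not reported here. Plots used matplotlib 3.10.9.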

Additional observations from a re-analysis of the deposited data

How the results depend on the processing

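The number of genes called ranged from 4175 (no detection filter, 31303 genes tested) to 4916 (authors' values, or no background correction) over the alternatives that kept all arrays, against 4431. Leaving out 1 array at a time gave 3558 to 3732 called, 1826 to 1954 higher, 1685 to 1778 lower and 565 to 585 at least 2-fold. Median scaling gave 1017 higher and 3275 lower, against 2306 and 2125. The count at least 2-fold was 564, and 184 with the authors' values, with their replicate block and with no background correction, and 301 with an offset of 50; the cause was not tested. Whether replicate numbers mark a shared batch was not settled. Same-numbered samples correlated only weakly, at 0.0444, 0.027 and 0.0578, yet each correlated best with its own number. Such correlations over all kept probes cannot exclude a shared batch. The replicate block on the authors' values gave 4843 called against 4916 without it. The 164 genes taken by the naming rule, but not the further list members named after their values were seen, were refitted under every setting. None of the 164 reversed direction while called, and 11 lost their call under some setting: CD74 under 6, RPL37 and SPIB under 5 each (SPIB without 25 nM array 4 or 5 or resistant array 12), and EIF4A2, HERPUD1, HLA-DRB3, MT2A, MVP, PSMB10, PSMD8 and RPS23 under median scaling only. Of the list counts under alternatives, 203 moved by over 1.5 times and 1279 did not. Sizes were less stable than calls for some of the 164 genes. Over all settings the smallest difference was 1.07 for CDKN2C (main 2.64), 1.77 for UBD (main 3.36) and 0.81 for CASP4 (main 1.90). For POLD1 it was -1.03 (main -2.03). HSPA6, by contrast, stayed between 3.08 and 3.44. Signal near background limits genes such as UBD, IFNG and CD274.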
